A study of Homo sapiens with 36 samples.

Results

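The nuclear genes that encode subunits of the respiratory chain were followed through immunoprecipitation of the m6A readers YTHDF1, YTHDF2 and YTHDF3. A protein-coding gene was taken by its symbol (NDUFA, NDUFB, NDUFC, NDUFS or NDUFV followed by a digit for complex I, UQCR for complex III, COX4 to COX8 for complex IV, ATP5 for complex V) when its mean input count was 10 or more. Of 60675 genes, 85 matched the symbols and 79 passed: 39 of complex I, 9 of complex III, 12 of complex IV and 19 of complex V. COX6B2, with a mean input count of 23.6, lay just inside the limit, and COX7A1 and ATP5MGL lay just outside, with 9 and 8.89. All 79 members passed the filter on low counts used for the tests. NDUFA4, known as a subunit of complex IV, stands with complex I here because of its symbol.

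The cells were HEK293T, a human embryonic kidney line, in 3 lines, each with a fusion of a reader and the RNA-editing enzyme ADAR (YTHDF1-ADAR, YTHDF2-ADAR, YTHDF3-ADAR). All were given doxycycline at 1 µg/mL for 24 h, so the inputs carried the fusion too. Each line gave 3 libraries of input and 3 for each of the RIPs (immunoprecipitation of an endogenous reader with its antibody), 36 libraries in all. Whether a fusion also came down with its antibody was not tested.

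Complexes I, III and IV pass electrons from NADH to oxygen and pump protons, and complex V, the ATP synthase, uses the proton gradient to make ATP. A few subunits of complexes I, III, IV and V are made from mitochondrial DNA, and the rest, the subject here, are made in the cytosol from nuclear mRNAs. The YTHDF proteins bind mRNAs that carry m6A in the cytosol.

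Libraries held 12.5 to 37.5 M counts. The 6 YTHDF1 RIP libraries from the YTHDF2-ADAR line and the YTHDF3-ADAR line differed from the rest: they were shallow (12.5 to 16.3 M), with 54.1 to 74.2% of counts in protein-coding genes against 71.5 to 92.4% elsewhere, and 3.15 to 8.58% in mitochondrially encoded mRNAs against 0.561 to 3.06%. Their part in the results was not tested, and the YTHDF1 RIP of YTHDF1-ADAR cells gives the fold changes over input without them. The test between lines cannot be made without them. All 7 HEK293 markers were above 1 CPM (counts divided by the library total in M, scaled by TMM) in inputs. Of 10 markers of other cells, 1 was, and 3 were at 0.

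Promoter sequences are shown because nuclear respiratory genes are known as targets of the factors NRF1, GABPA and YY1. A relation of the motifs to the RIP values was not tested. RefSeq windows (GRCh38.p14, 250 bases before to 50 after the start) matched 64 of the 79 members by symbol. The NRF1 letters GCGCANGCG stood on either strand in 19 of 64 members (29.7%) and in 8.05% of all 27305 windows. They were found in 4 of 7 windows of complex III, 8 of 32 of complex I, 6 of 14 of complex V and 1 of 11 of complex IV. The GABPA letters CCGGAAGT stood in 9 members (14.1%, against 4.44%) and the YY1 letters AAGATGGCG in 7 (10.9%, against 1.85%). A first search with a further base at the end of the NRF1 and YY1 motifs found 14 members (21.9%, against 6.28%) and 6 (9.38%, against 1.28%), and the shorter forms were chosen after those counts were seen. The NRF1 and GABPA matches can overlap other motifs, and a match is a description only. The stretches below lie before the start, with the match in capitals: UQCRFS1 at chr19:29213153-29213202, UQCRC1 at chr3:48609664-48609713, COX5B at chr2:97646005-97646052 and COX8A at chr11:63974581-63974619.
UQCRFS1: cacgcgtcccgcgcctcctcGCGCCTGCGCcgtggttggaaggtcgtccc
UQCRC1: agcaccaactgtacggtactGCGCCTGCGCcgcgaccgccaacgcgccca
COX5B: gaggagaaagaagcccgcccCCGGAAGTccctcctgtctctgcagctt
COX8A: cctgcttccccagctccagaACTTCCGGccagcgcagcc

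Most respiratory chain messages were less abundant in all 3 RIPs than in input. In the edgeR quasi-likelihood test with Benjamini-Hochberg adjustment over 31849 genes, a gene was called at an adjusted p under 0.05. In YTHDF1 RIP, 75 of 79 members were called lower in each line, where 28.8%, 33.4% and 32.4% of all genes were (in the order of the readers in the line's fusion, here and below). In YTHDF2 RIP the counts were 64, 58 and 62, against 15.4%, 10.1% and 9.93% of all genes. In YTHDF3 RIP they were 73, 72 and 74, against 20.1%, 16.9% and 16.1% of all genes. Members called higher numbered 1, 3 and 3 in YTHDF1 RIP (all genes 20.6%, 41.8% and 40.8%), 4, 5 and 3 in YTHDF2 RIP (8.66%, 10.2% and 8.98%) and 0, 1 and 0 in YTHDF3 RIP (11.5%, 15.2% and 13.5%). The 3 RIPs of a line share its input, so their values stand side by side. With the 13 mitochondrially encoded mRNAs as the library size the counts of members called lower were 28, 13 and 41 in YTHDF2 RIP. There 1086, 250 and 715 of 31849 genes were called in either direction. In YTHDF3 RIP the counts were 48, 40 and 50, where 1932, 6216 and 1521 genes were called in either direction. The labels do not say that replicates were grown apart, so a p-value here speaks only of the spread among these libraries.

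The median log2 fold change of the members was -2.00, -1.84 and -1.94 in YTHDF1 RIP, -1.60, -1.18 and -1.37 in YTHDF2 RIP, and -2.17, -1.88 and -1.93 in YTHDF3 RIP. The median of the 15966 protein-coding genes tested lay between -0.48 and 0.06 in the same 9 comparisons.

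**Figure D1:**
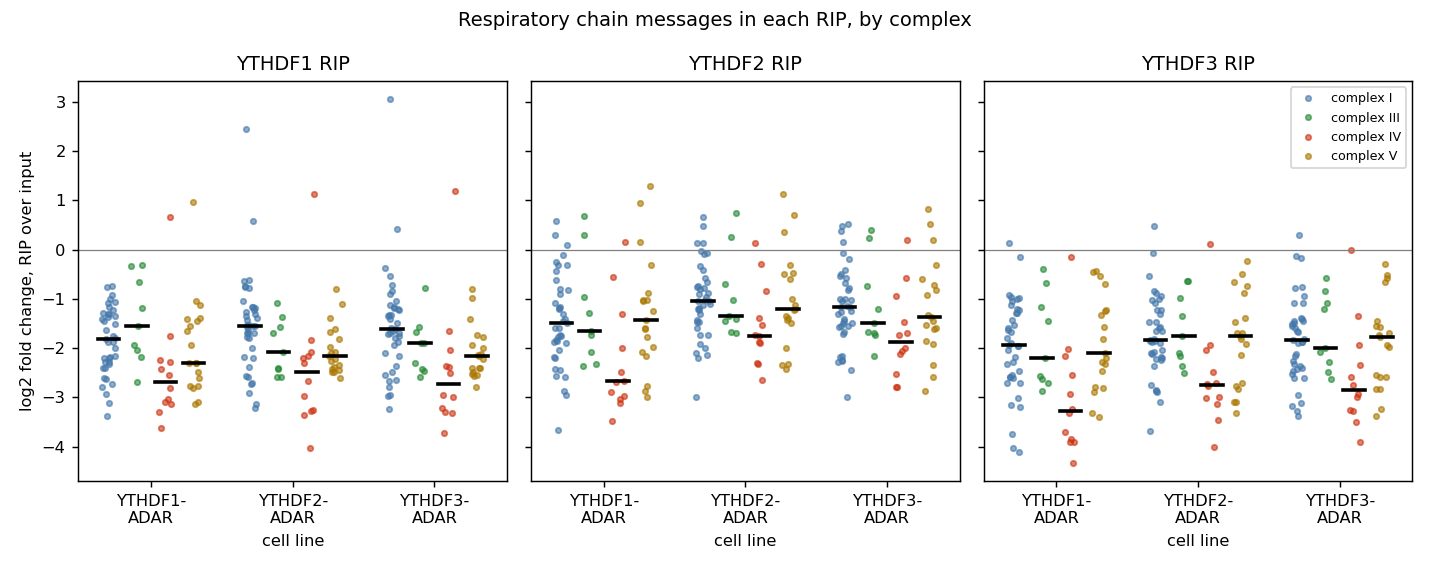
Log2 fold change of RIP over input (vertical axis) for each of the 79 members, by RIP (panel), cell line and complex (colour), with black bars at the medians. Complex IV has the lowest median in all 9 comparisons, from -3.28 to -1.75.

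Complex IV was the lowest of the 4 complexes in every RIP and line. Its median minus that of complex I was -0.87, -0.95 and -1.11 in YTHDF1 RIP, -1.18, -0.71 and -0.70 in YTHDF2 RIP, and -1.34, -0.91 and -1.001 in YTHDF3 RIP. The difference was negative in each of the 3 replicates of all 9 comparisons, and it stayed between -1.46 and -0.59 under every alternative setting run. For a replicate, each RIP library was set against the mean of its line's 3 inputs. The replicates and RIPs of a line share that mean, so they are not separate tests. This difference, taken between complexes of the same comparison, hardly depends on how libraries are scaled. Complex V minus complex I was -0.48, -0.62 and -0.54 in YTHDF1 RIP and lay between -0.20 and 0.08 in the other RIPs. Complex III minus complex I was 0.26, -0.53 and -0.28 in YTHDF1 RIP, with each replicate of the same sign. In YTHDF2 RIP it was -0.17, -0.31 and -0.32. There replicate 3 of YTHDF1-ADAR cells (0.093), replicate 2 of YTHDF2-ADAR cells (0.089) and replicate 1 of YTHDF3-ADAR cells (1.05e-05) were positive. In YTHDF3 RIP it was -0.26, 0.08 and -0.16. The replicates of YTHDF3-ADAR cells were all positive there (0.15, 0.12 and 0.18), and those of the other lines differed in sign. Without the copy UQCRHL and the read-through genes the YTHDF3 RIP values were 0.10, 0.10 and 0.19, so the values of YTHDF1-ADAR and YTHDF3-ADAR cells turned sign. Members are not replicates of a complex, so no test was made. Members with longer summed exons had higher fold changes, with Spearman rho from 0.21 to 0.48 over 79 members and 0.17 to 0.48 over protein-coding genes. Summed length counts all annotated exons of a gene (19359 bases for NDUFA10), so it is not the length of a single mRNA. Complex IV had the shortest median summed length, 1946 bases, against 2475, 2218 and 2859 for complexes I, III and V. The part of length in the difference was not tested.

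COX7A2, a small subunit of complex IV (ENSG00000112695, chromosome 6, 75237675 to 75250323, GRCh38), was among the lowest members. In YTHDF1-ADAR cells its input held 47.9, 59.0 and 82.3 CPM (scaled by TMM), and its YTHDF3 RIP 3.13, 3.51 and 2.74 CPM. The YTHDF2 RIP of the same cells held 6.36, 6.11 and 4.50 CPM, and the YTHDF1 RIP 6.56, 4.70 and 7.89 CPM. No RIP library overlapped the inputs. The log2 fold change was -4.33 (SE 0.22, adjusted p = 2.95e-16, edgeR) in YTHDF3 RIP, and it was -4.01 and -3.90 in the other lines. In YTHDF2 RIP it was -3.47, -2.64 and -2.79. NDUFA4 and NDUFA1, an accessory subunit, were the lowest 2 members with a complex I symbol in YTHDF1-ADAR cells, at -3.66 and -2.95 in YTHDF2 RIP and -4.03 and -4.12 in YTHDF3 RIP. COX8A, COX6C and COX7C, other small subunits of complex IV, were called lower in all 9 comparisons, as were COX4I1, COX5A and COX5B, with COX5B from -3.85 to -1.73. COX6B2, a testis form of a complex IV subunit, was the exception: it was called higher in YTHDF1 RIP of 2 lines, at 1.14 and 1.19, and the first call was lost without YTHDF2-ADAR input replicate 1 (0.61), the other without YTHDF3-ADAR input replicate 3 (0.72).

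COX7A2L, a relative of COX7A2 known for joining complexes III and IV, differed from it in YTHDF2 RIP. In YTHDF2-ADAR cells the inputs held 67.5, 59.1 and 51.5 CPM and the YTHDF2 RIP 56.1, 58.0 and 82.8 CPM, which overlap. The YTHDF3 RIP held 14.9, 12.4 and 19.2 CPM, all below input. Its log2 fold change in YTHDF2 RIP was 0.15, 0.14 and 0.19, none called.

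**Figure D2:**
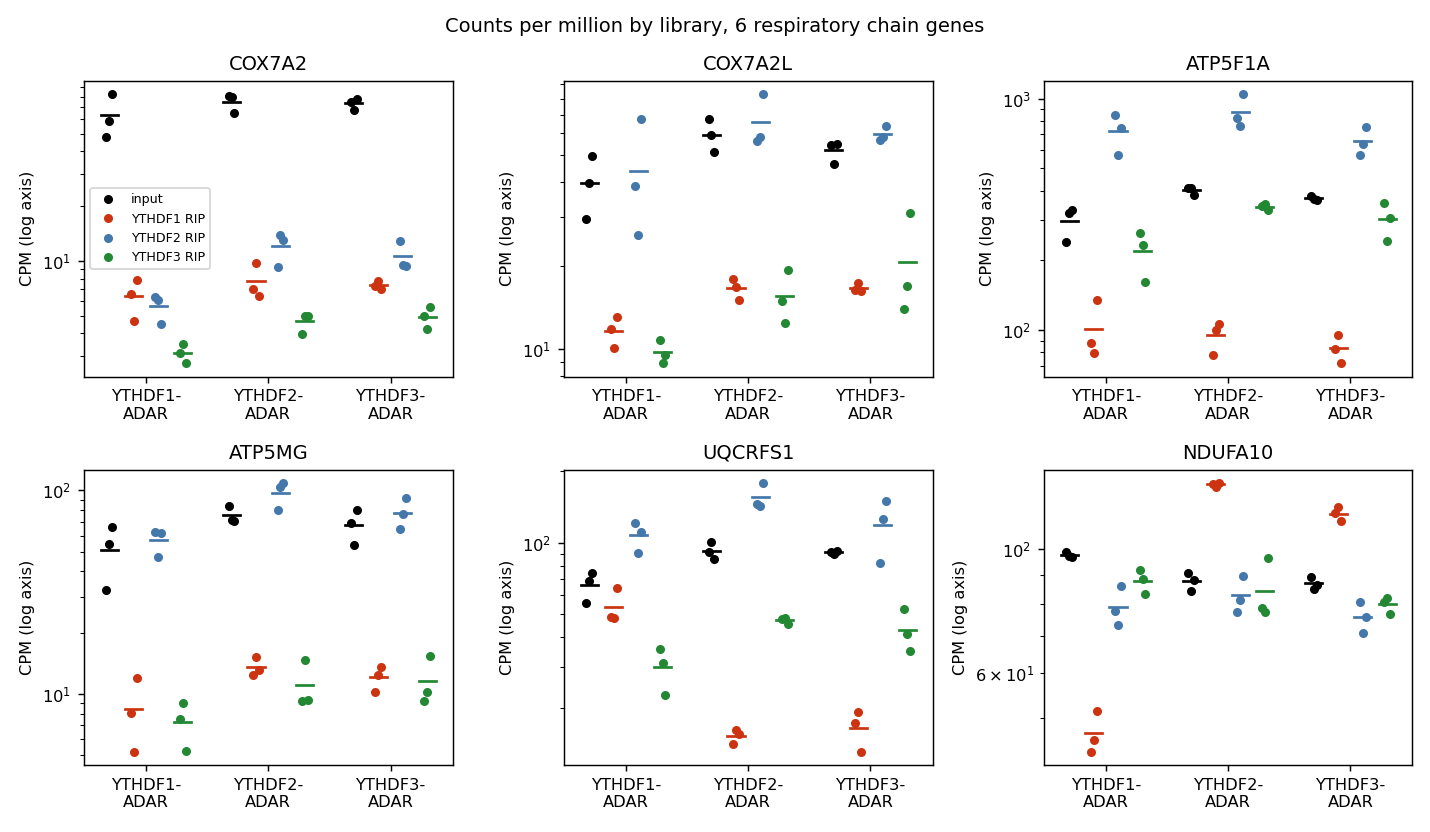
CPM on a log axis for 6 members in every library, by line and by arm (colour), with horizontal lines at the mean of 3 libraries. COX7A2 lies below input in all RIPs, and ATP5F1A lies above input in YTHDF2 RIP.

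The members called higher in YTHDF2 RIP, 4, 5 and 3 of 79 by line, were fewer than the 8.66%, 10.2% and 8.98% of all genes called higher, and ATP5F1A, ATP5F1B, UQCRFS1 and NDUFS1 were among them. ATP5F1A, the alpha subunit of the F1 part of complex V, held 239, 319 and 331 CPM in the inputs of YTHDF1-ADAR cells and 847, 571 and 746 CPM in their YTHDF2 RIP, with no overlap. It rose by 1.28 (SE 0.20, adjusted p = 4.61e-06, edgeR), 1.13 and 0.82 in the 3 lines, and in YTHDF1 RIP it was called lower in all 3 (-1.56, -2.08 and -2.15). ATP5F1B, the catalytic beta subunit, was called higher in YTHDF2 RIP at 0.95 and 0.70, and had 0.53 in YTHDF3-ADAR cells without a call. The second call was lost without YTHDF2-ADAR input replicate 1 (0.62), input replicate 3 (0.62) or YTHDF2 RIP replicate 1 (0.68). UQCRFS1, the Rieske iron-sulfur subunit of complex III, was called higher at 0.69 and 0.75 and had 0.39 in the third line. The second of these calls was lost without YTHDF2-ADAR input replicate 3 (0.63), and the first without input replicate 1 and YTHDF2 RIP replicate 3 together (0.55).

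NDUFS1, a core subunit of complex I, had 0.29, 0.48 and 0.52 in YTHDF2 RIP of the 3 lines, with the last 2 called, and each was lost when any input library of its line was left out (0.39 to 0.49), the first also without YTHDF2 RIP replicate 1 (0.43). NDUFV1 and UQCRC1 had values between 0.09 and 0.29 with no call. By contrast the small subunits ATP5F1E, ATP5MK and ATP5MJ were called lower in all 3 YTHDF2 RIPs, from -2.98 to -2.32.

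Shares of all counts were compared too. Over the 76 members without read-through genes and the copy UQCRHL, complex V took 0.178% ± 0.0228 (SD, n = 3) of input counts in YTHDF1-ADAR cells and 0.238% ± 0.0431 of the YTHDF2 RIP. In YTHDF2-ADAR cells the shares were 0.226% ± 0.00612 and 0.276% ± 0.0277, and in YTHDF3-ADAR cells 0.223% ± 0.00862 and 0.233% ± 0.0198. Input and YTHDF2 RIP libraries overlapped in YTHDF1-ADAR cells (0.201% in input replicate 3, 0.188% in YTHDF2 RIP replicate 2). They also overlapped in YTHDF3-ADAR cells (0.232% in input replicate 3, 0.218% in YTHDF2 RIP replicate 1). Total counts raise log2 fold changes of YTHDF2 RIP by 0.21, 0.20 and 0.20 relative to TMM. Protein-coding genes took 71.5 to 79.1% of inputs and 82.8 to 91.8% of YTHDF2 RIP. Most members of complex V did not follow its share: 15, 13 and 14 of 19 were called lower in YTHDF2 RIP and 2, 2 and 1 higher, those called higher being ATP5F1A and, in the first 2 lines, ATP5F1B. In YTHDF1-ADAR cells ATP5F1B held 448, 596 and 645 CPM in input and 1234, 864 and 1167 CPM in YTHDF2 RIP. Complex IV went from 0.0796% ± 0.0167 of input to 0.0212% ± 0.00160, 0.0141% ± 0.00282 and 0.0111% ± 0.000628 of the YTHDF2, YTHDF1 and YTHDF3 RIPs in YTHDF1-ADAR cells.

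**Figure D3:**
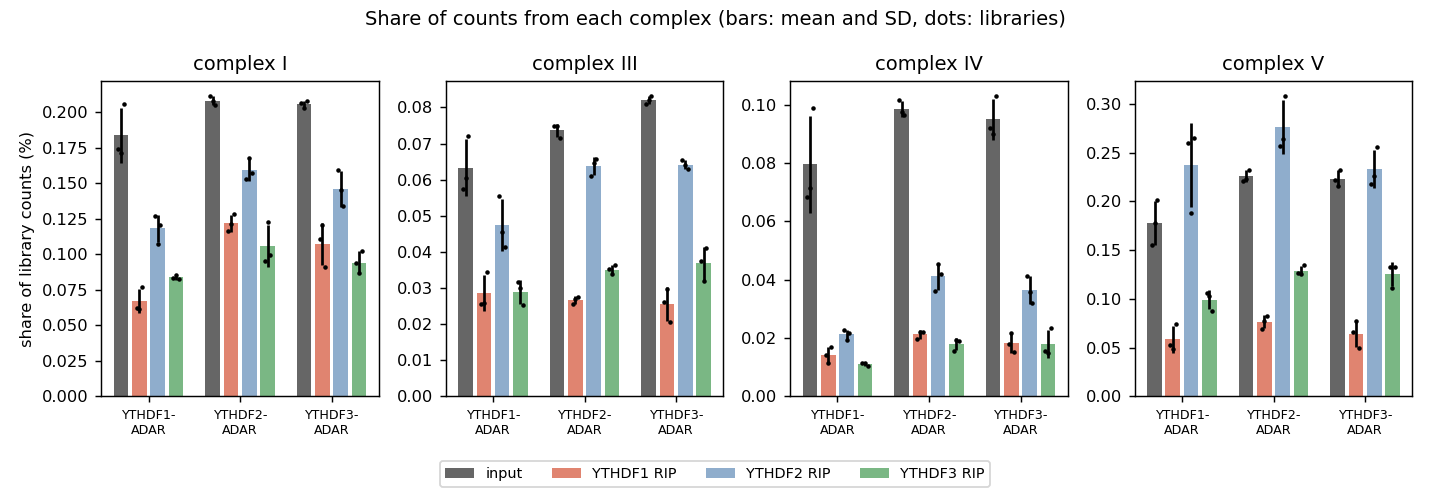
Share of library counts (%) from each complex by line and arm (bars: mean of 3 libraries with SD, dots: libraries). The mean YTHDF2 RIP share of complex V is above input, with overlapping libraries in YTHDF1-ADAR and YTHDF3-ADAR cells, although 13 to 15 of its 19 members are called lower. The complex IV share is below input in all RIPs.

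Set directly against each other, YTHDF2 RIP held more of the members than YTHDF3 RIP. Over the mean of the 3 lines, 62 of 79 members were called, 59 higher in YTHDF2 RIP and 3 lower, where 36.7% of all genes were called in either direction. With mitochondrially encoded mRNAs as the library size 26 members and 3856 of 31849 genes were called. ATP5MG, subunit g of the membrane part of complex V, had the largest difference. In YTHDF1-ADAR cells it held 62.4, 47.2 and 61.6 CPM in YTHDF2 RIP and 7.57, 9.07 and 5.26 CPM in YTHDF3 RIP, with no overlap, against 32.5, 54.6 and 66.2 CPM in input. The log2 difference was 2.95 (SE 0.15, adjusted p = 4.25e-16, edgeR). COX7A2L followed at 1.93, UQCRFS1 at 1.69 and UQCRC1, a core subunit of complex III, at 1.60. The 3 members lower in YTHDF2 RIP were COX6B2 (-0.46), UQCRB (-0.43) and UQCRC2 (-0.28).

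**Figure D4:**
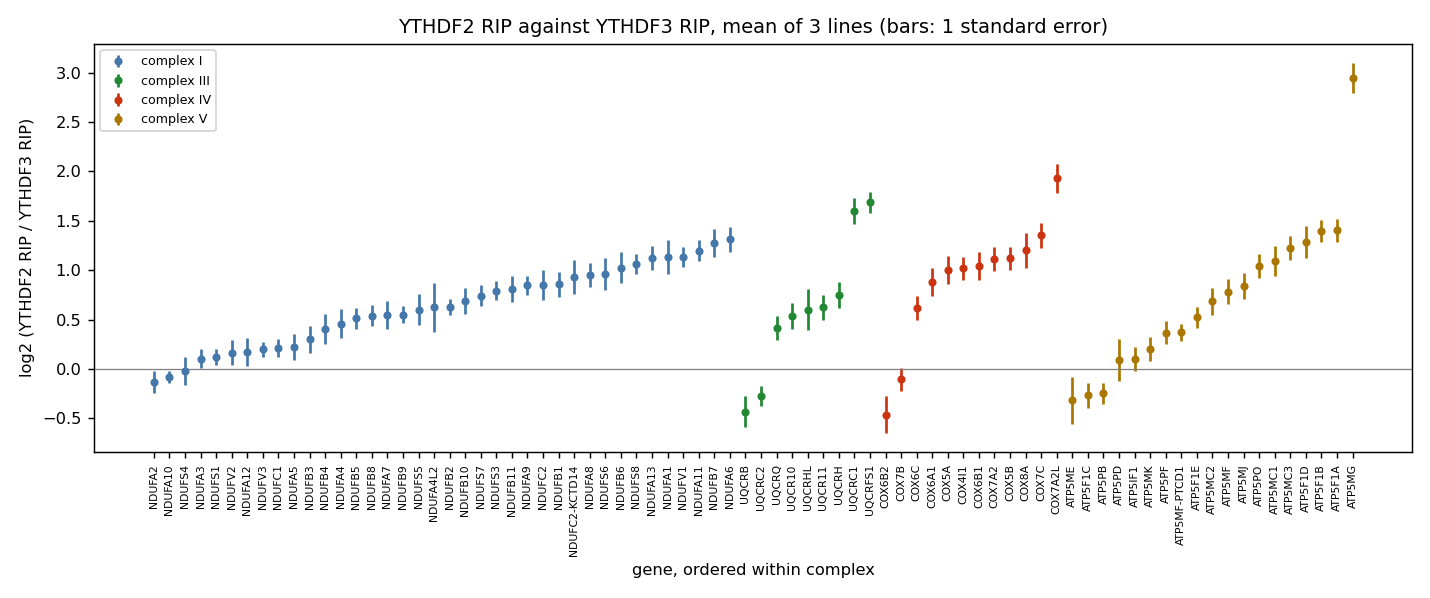
Log2 ratio of YTHDF2 RIP to YTHDF3 RIP, mean of 3 lines (vertical axis, bars are 1 standard error), for each member drawn (1 is left out of the plot), ordered within its complex. ATP5MG stands highest at 2.95, and 59 members, counted over all of them, are called above 0.

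In YTHDF1-ADAR cells, 32 members were called between YTHDF1 RIP and YTHDF2 RIP (39.1% of all genes), 27 of them lower in YTHDF1 RIP. ATP5F1A (-2.84) and ATP5MG (-2.76) were lowest, and UQCR10, a small subunit of complex III, was highest at 1.99. Between YTHDF1 RIP and YTHDF3 RIP 37 were called (41.1% of all genes), 24 of them higher in YTHDF1 RIP, with UQCR10 at 2.23. In either direction both counts are near the share of all genes with TMM. Against YTHDF2 RIP, 34.2% of members were called lower in YTHDF1 RIP (18.8% of all genes), and 5 members higher (6450 of 31849 genes). Against YTHDF3 RIP, 16.5% of members were called lower (18.7% of all genes), and 24 members higher (7141 genes). With mitochondrially encoded mRNAs as the library size, 74 members and 19956 of 31849 genes were called between YTHDF1 RIP and YTHDF2 RIP, and 55 members and 15941 genes between YTHDF1 RIP and YTHDF3 RIP.

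Enrichment in YTHDF1 RIP differed between lines for 21 of 79 members, where 63.7% of all genes were called. The count rests on the scaling: it was 52 with protein-coding counts as the library size (21763 of 31849 genes), 32 with total counts (20680 genes) and 8 with mitochondrially encoded mRNAs (13970 genes). NDUFA10, an accessory subunit of complex I, held 43.4, 45.7 and 51.4 CPM in YTHDF1 RIP of YTHDF1-ADAR cells and 98.8, 97.4 and 97.0 CPM in their inputs. In YTHDF2-ADAR cells it held 131, 130 and 131 CPM in YTHDF1 RIP against 90.5, 84.2 and 88.2 CPM in input. Its log2 fold change was -1.06 in the first line, 0.58 in the second and 0.42 in the third. The call in YTHDF2-ADAR cells was lost without any 1 of its inputs or YTHDF1 RIP replicates 1 or 3 (0.24 to 0.29), and that in YTHDF3-ADAR cells without any 1 of its inputs or YTHDF1 RIP replicate 2 (0.08 to 0.11). Each of these fits also repeated the filter and the TMM scaling, and the part of these in the lost calls was not tested. With mitochondrially encoded mRNAs as the library size the values were -0.16 and -1.21. For UQCRFS1 the 3 values were -0.31, -2.59 and -2.46. NDUFA4L2, a relative of NDUFA4, had -1.17, 2.46 and 3.05, and the first of these rests on YTHDF1-ADAR input replicate 1, without which it was -0.21.

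The same test called 0 members in YTHDF2 RIP (0% of all genes) and 0 in YTHDF3 RIP (0.00628% of all genes). At an unadjusted p under 0.05 there were 12 members in YTHDF2 RIP, 6 of them of complex IV, where 1064 of 31849 genes were, and 4 in YTHDF3 RIP, where 1632 genes were. DESeq2 called 0 members in both. A p that misses the threshold does not show that lines were alike.

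The inputs of the lines were compared too. Between YTHDF1-ADAR and YTHDF2-ADAR inputs 4 members were called, all lower in the first: ATP5MC2 (-0.75), COX5A (-0.70), ATP5PO (-0.60) and ATP5MF-PTCD1 (-0.40). Of all genes, 17.6% were called in either direction. Those called lower were 5.06% of members and 4.30% of all genes. Between YTHDF1-ADAR and YTHDF3-ADAR inputs 5 were called, among them ATP5PB (-0.71), NDUFS5 (-0.79) and UQCRH (-0.70) lower and NDUFA4L2 (1.54) higher. Of all genes, 16.4% were called in either direction. Those called lower were 5.06% of members and 5.10% of all genes. Without YTHDF1-ADAR input replicate 1 both counts were 0, and without its replicate 3 they were 46 and 30. The counts thus change with the library left out, in fits that also repeat the filter and scaling. Between YTHDF2-ADAR and YTHDF3-ADAR inputs 0 members were called (3.42%), 0 at an unadjusted p under 0.05 and 0 by DESeq2.

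Other genes of respiration were read from a list. All 4 genes of complex II were called lower in YTHDF1 RIP in each line (28.8%, 33.4% and 32.4% of all genes). In YTHDF2 RIP 3 of them were called lower in each line, and SDHA, its flavoprotein subunit, was called higher at 1.08, 0.87 and 0.53. Of 22 complex IV assembly genes, 10, 8 and 8 were called lower and 3, 2 and 2 higher in YTHDF2 RIP. For 14 assembly genes of complex I the counts were 6, 6 and 7 lower and 2, 3 and 1 higher. For 6 of complex III they were 3, 2 and 1 lower and 0, 1 and 1 higher. Of 6 genes listed as regulators, NRF1 and GABPA among them, 1, 0 and 1 were lower and 3, 3 and 3 higher. Of all genes, 15.4%, 10.1% and 9.93% were called lower in YTHDF2 RIP and 8.66%, 10.2% and 8.98% higher. Of the 13 mitochondrially encoded mRNAs, 5, 5 and 8 were called higher in YTHDF1 RIP and none lower. Of all genes 20.6%, 41.8% and 40.8% were called higher there. None of the 13 was called in YTHDF2 RIP. In YTHDF3 RIP 2, 3 and 1 of them were called lower, against 20.1%, 16.9% and 16.1% of all genes.

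The authors' deposited editing tables give, per gene, a score of editing by the fusion, which the rule did not use. The percents here were computed as 100 times score over sites. In the authors' deposited table of YTHDF1-ADAR cells 23 of the 79 members are listed among 7829 genes, with a median of 2 sites against 6. Of members with a value in both arms, 5 of 22 had an adjusted p under 0.05 in YTHDF1 RIP in the authors' deposited table, where 8.15% of all genes did. NDUFC1, an accessory subunit of complex I, went there from 0.154% to 3.13%, computed from the authors' deposited table, and ATP5PF, a stalk subunit of complex V, from 0.290% to 2.58%. In YTHDF1 RIP of YTHDF2-ADAR cells NDUFB7, another accessory subunit, went from 0.107% to 16.9% (1 site), computed from the authors' deposited tables. In YTHDF3-ADAR cells it went from 0.768% to 20.1% (2 sites). It was the only member there with an adjusted p under 0.05, of 9 and 5, where 2.89% and 3.08% of all genes had one. Both rises are in the 6 YTHDF1 RIP libraries that differed from the rest. In YTHDF2 and YTHDF3 RIP NDUFB7 had 0.265% and 1.07% in YTHDF2-ADAR cells, and 0.682% and 0.334% in YTHDF3-ADAR cells. In YTHDF1 RIP of YTHDF1-ADAR cells it went from 3.497% to 5.87%, without an adjusted p under 0.05. Replicates are pooled in these tables, and depth per site is unknown.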

How the data were processed

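RNA of 36 HEK293T libraries was sequenced. Alignment was to GRCh38 with STAR 2.7.7 and counting with featureCounts 2.0.1, per the submitters' processing notes. Per the file headers, the deposited read counts keep multi-mapping reads and reads shared by genes, and use no strand, so members with pseudogene copies, overlapping genes or read-through genes (ATP5MF-PTCD1, NDUFC2-KCTD14, UQCRHL) are uncertain. The authors' deposited table of log2 fold changes and p-values gave symbols and biotypes. Its median log2 fold change over the members was -2.10, -1.23 and -1.90 for the 3 RIPs. The authors' deposited editing tables give each gene a score, a p-value and the natural log of an odds ratio. What the score is was read from the values: taking score over sites as the edited fraction gives back the deposited natural log odds ratio, within 0.01, in 98.9% of 33028 comparisons (100% in YTHDF1 RIP).

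Counts of 31849 genes that passed filterByExpr were fitted with edgeR 4.0.16 (R 4.3.3), 12 groups, TMM, quasi-likelihood, Benjamini-Hochberg over all genes, threshold 0.05. DESeq2 1.42.0 was an alternative, beside other scalings, filters, the replicate block and leaving out each library. Every fit without a library repeated the filter and the TMM scaling. CPM were scaled by TMM. Genes were named by a rule: per RIP and complex the 2 lowest and the highest member, per interaction the 3 of smallest p, per other contrast the 2 lowest and 2 highest called, and a list of subunits always read. Members and lists were chosen with earlier results of these data known. Outside the rule, UQCRH among the input calls, UQCRC1 beside ATP5MG, SDHA and the genes named for editing were chosen after values were seen. On simulated data with 31849 genes (YTHDF2 RIP against input, YTHDF1-ADAR cells) the fit recovered 97.0% of 4-fold, 62.7% of 2-fold and 10.4% of 1.5-fold changes. Only 66, 67 and 67 genes were changed, none of low count, and all others were the same in every group. The real comparison called 7676 genes, so these rates do not tell how often the real tests find a change. No column was left unused (0). The values of 1 member are not reported here, although it is in every count and median.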

Additional observations from a re-analysis of the deposited data

Results flagged for a closer look

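The enrichment of members in YTHDF1 RIP differed between the 3 lines, by a test of the difference itself, for 21 of 79 members, against 63.7% of all genes. With other library sizes the count was 8 (mitochondrially encoded mRNAs, 13970 of 31849 genes), 32 (total counts, 20680 genes) or 52 (protein-coding counts, 21763 genes). The adjusted p (edgeR) was 3.37e-11 for NDUFA10, 3.47e-11 for the read-through gene ATP5MF-PTCD1 and 1.49e-09 for UQCRFS1. The 6 YTHDF1 RIP libraries of YTHDF2-ADAR and YTHDF3-ADAR cells stand apart in depth and in their share of protein-coding counts. Line and this set of libraries cannot be told apart.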

How the results depend on the processing

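With mitochondrially encoded mRNAs as the library size, members called lower were 28, 13 and 41 in YTHDF2 RIP. There 1086, 250 and 715 of 31849 genes were called in either direction. In YTHDF3 RIP of YTHDF1-ADAR and YTHDF2-ADAR cells they were 48 and 40 (1932 and 6216 genes in either direction). Between YTHDF2 and YTHDF3 RIP 26 were called (3856 genes), and between YTHDF1 and YTHDF2 RIP 74 (19956 genes). Between YTHDF1-ADAR inputs and the others 2 and 1 were called (10754 and 4152 genes). By line in YTHDF1 RIP 8 were called (13970 genes). That scaling turned the sign of ATP5MF-PTCD1 in YTHDF1 RIP of YTHDF1-ADAR cells (-0.082), against YTHDF2 RIP (-0.27) and between inputs (0.51), of NDUFA10 (0.28 in YTHDF2 RIP of YTHDF1-ADAR cells, -0.16 and -1.21 in YTHDF1 RIP of the other lines), of COX6B2 in YTHDF1 RIP of YTHDF3-ADAR cells (-0.53), and, between inputs, of ATP5MC2 (0.10), COX5A (0.12) and ATP5PO (0.26). It shifts all genes by -1.61 to 0.72 on the log2 scale relative to TMM, total counts by 0.17 to 0.52. With protein-coding counts as the library size NDUFV1 in YTHDF1 RIP of YTHDF3-ADAR cells was 0.24, and 52 members differed by line in YTHDF1 RIP, against 32 with total counts.

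The input counts were the least stable. For YTHDF1-ADAR against YTHDF2-ADAR, 12 members were called with RLE (5929 of all genes), 2 with total counts (5801) and 2 with protein-coding counts (6460). With no filter 26 were called (6338 genes), and with the stricter filter 15 (4380). By DESeq2 13 were called (6420 genes), with the replicate block 8 (5591), and 0 to 46 when 1 library was left out. For YTHDF1-ADAR against YTHDF3-ADAR, 16 were called with no filter (5560 genes), 8 by DESeq2 (5830) and 0 to 30 when 1 library was left out. With input replicate 1 and YTHDF2 RIP replicate 3 of YTHDF1-ADAR cells left out together, a setting chosen after seeing the data, the 2 counts were 0 and 1 (1527 and 1555 genes). With only the groups of the contrast, 4 members were called between YTHDF2-ADAR and YTHDF3-ADAR inputs (3188 genes). With no filter, 2 members differed by line in YTHDF2 RIP (112 genes) and 1 in YTHDF3 RIP (238 genes). The cause of these changes was not tested.

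Replicate numbers did not pair the samples throughout: 4 of 27 same-numbered pairs had a correlation over 0.1 (range -0.39 to 0.33), and 11 of 27 samples correlated best with their own number. The lines differed. In YTHDF3-ADAR cells each YTHDF1 RIP library correlated best with its own-numbered input (0.031, 0.068 and 0.070), and in YTHDF1-ADAR cells no YTHDF1 RIP library did. With 3 libraries per group the check cannot show that the samples were unpaired. With the replicate block, 63 members were called lower in YTHDF2 RIP of YTHDF1-ADAR cells (7794 genes called in either direction). By line in YTHDF1 RIP 23 members differed with it (20307 genes). Among counts of members called, only that between YTHDF1-ADAR and YTHDF2-ADAR inputs moved by over 1.5 times. Leaving out the read-through genes and UQCRHL moved no count by over 1.5 times, but it moved 6 of 27 differences between complexes by more than their SD, 5 of them of complex III. Leaving out 1 library moved 18 of 162 such differences and 63 of 216 medians of a complex by more than their SD.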
